A study of Homo sapiens with 8 samples.

Results

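The genotype dependence of the starvation response is the amount by which the 8 h response to medium without serine and glycine in cells labelled ATF3 knockout exceeded, or fell short of, the response in wild-type cells. It was computed for each gene and batch as the interaction, the log2(FPKM + 1) response of the libraries labelled knockout minus the response of the wild-type libraries. FPKM counts fragments per length of transcript, scaled to the fragments of the library. A gene entered where it had 5 FPKM or more in at least 2 of the 8 libraries and no exact 0 in any library. This gave 10848 of the 57884 listed genes, 9672 of them protein-coding. Of 11678 genes that met the level requirement, 830 were left out because 1 or more libraries were listed at 0. A positive interaction means a higher response in the cells labelled knockout.

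All cultures were hTERT-RPE1, human retinal pigment epithelial cells made immortal with the catalytic subunit of telomerase. The 4 groups were ATF3(-/-) cells in serine/glycine-free medium for 8 h, ATF3(-/-) cells in complete medium, wild-type cells in serine/glycine-free medium for 8 h and wild-type cells in complete medium. Each group held 2 libraries, 1 from each of 2 independent experiments, which are the batches. The sample titles give the complete-medium libraries a time of 0 h. The labels put 2 days in complete medium and 2 saline washes before the starvation, in the same words for every sample, and do not settle whether the complete-medium cultures were washed or kept for 8 h more. Medium, added culture time and handling therefore cannot be told apart in a response, in either genotype. How the ATF3(-/-) line was made, and whether it is 1 clone, is not stated in the labels. In the sentences below, values of a group are given for batch 1 and then for batch 2, "starved" means the serine/glycine-free medium, and levels are compared only within a batch because the 2 tables were normalized separately.

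Cells that run short of an amino acid phosphorylate the translation factor eIF2, which favours translation of the transcription factor ATF4. ATF4 then raises genes for amino acid synthesis, transport and tRNA charging, and among its targets is ATF3, a stress-induced factor of the ATF/CREB family. Serine is made from a glycolytic intermediate by PHGDH, PSAT1 and PSPH acting in that order, and serine and glycine feed the folate one-carbon cycle.

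Libraries differed little in depth and strongly in identity. FPKM sums ran from 2429660 to 3148150, relative depth read from the step between low values ran from 1 to 1.28, and small RNA genes held 60.5% to 65.6% of each sum. Absolute depth is unknown. In batch 2 the libraries labelled knockout stood apart from all others. The epithelial adhesion gene EPCAM had 98.5 FPKM starved and 102 FPKM in complete medium there, against 11.5 and 10.7 FPKM in wild type, and the mesenchymal filament gene VIM had 102 and 118 FPKM, against 638 and 598 FPKM in wild type. In batch 1 VIM had 1247 FPKM starved and 1018 FPKM in complete medium in libraries labelled knockout, against 856 and 809 FPKM in wild type. The summed level of the 14 epithelial markers in batch 2 was 1024 and 1253 FPKM, against 370 and 582 FPKM in wild type, and in batch 1 it was 239 and 230 FPKM, against 323 and 367 FPKM. The 12 mesenchymal markers summed in batch 2 to 220 and 224 FPKM, against 815 and 742 FPKM in wild type, and in batch 1 to 1828 and 1666 FPKM, against 1360 and 1328 FPKM. Of 12 retinal pigment epithelium markers, 6 were below 1 FPKM in every library, among them RPE65 and TYR. The 6 immune markers were below 1 FPKM in every library. A difference between genotypes that is the same in both media cancels in the interaction. Whether these identity differences bear on the responses was not tested, and the batch 1 interaction given beside each batch 2 value is the value without these libraries.

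The mRNA of ATF3, the gene named in the genotype label, went against that label in batch 2. ATF3 mRNA had 4.45 and 57.3 FPKM in starved libraries labelled knockout and 3.38 and 20.8 FPKM in those in complete medium, against 6.46 and 18.01 FPKM in starved wild-type libraries and 3.47 and 3.65 FPKM in wild type in complete medium. The batch 1 levels of the genotypes lay close together, and in batch 2 both libraries labelled knockout were above the wild-type libraries of the same medium. ATF3 mRNA from a disrupted gene can still be counted, so these values do not show whether ATF3 protein was lost. Because ATF3 mRNA went against the label in batch 2, all genotype statements below refer to libraries labelled knockout. The response of ATF3 was 0.32 and 1.42 log2 units in cells labelled knockout and 0.74 and 2.03 log2 units in wild type. The interaction was −0.42 and −0.61 (mean −0.52, SE 0.59, n = 2 batches). The SE, here and below, reflects how far the response of each genotype differed between batches, and is not the spread of the 2 interactions. A shift in response shared by both genotypes cancels in the interaction but enters this SE. With a medium term for each batch in the model, the SE for ATF3 was 0.23.

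Across members, the interaction was mostly small and did not repeat between batches. It lay within 0.5 log2 units of 0 for 80.1% of members in batch 1 and 81.4% in batch 2, with medians of −0.01 and −0.02 and SDs of 0.47 and 0.44. Its correlation between the batches was 0.00538 over 10848 genes, which are not independent replicates, and 49.9% of members had the same sign in both. The responses of cells labelled knockout and wild type, which share a table and an experiment, correlated across genes at 0.49 in batch 1 and 0.49 in batch 2. Between batches, responses correlated at 0.25 for cells labelled knockout and 0.36 for wild type.

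**Figure D1:**
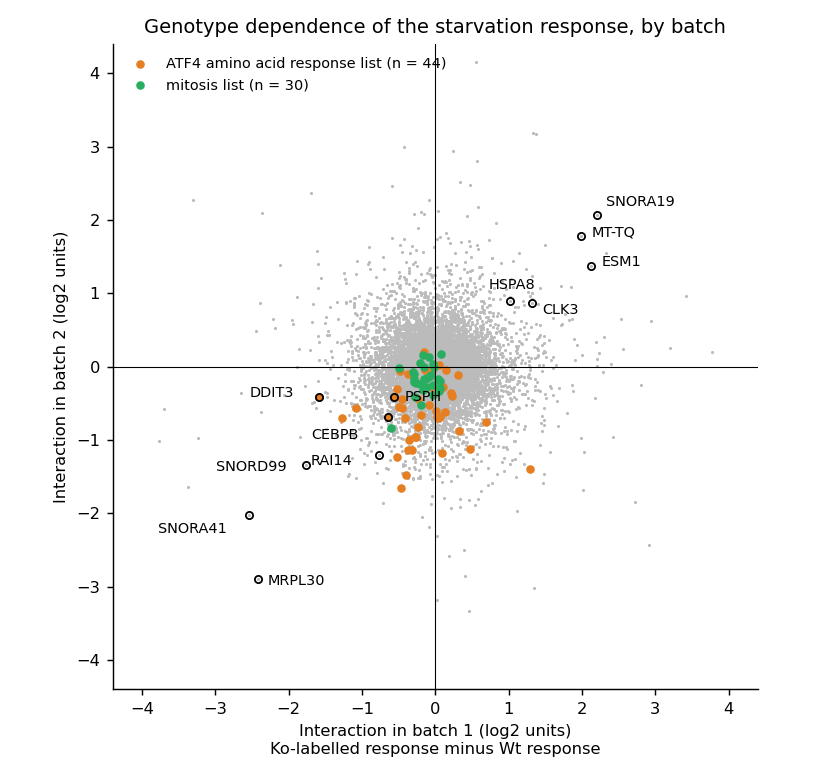
Interaction of each of the 10848 members in batch 1 (horizontal axis) and batch 2 (vertical axis), in log2 units; grey points are members, orange the 44 measured genes of the ATF4 list, green the 30 mitosis genes, and open circles the labelled genes. The cloud has no slope (r = 0.00538), and 2 members lie outside the axes.

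The interaction was tested with limma over 17994 genes, with a block for each genotype and batch and Benjamini-Hochberg adjustment across the 17994. No member passed at 0.05. The smallest adjusted p of a member was 0.0684, and 2 members were under 0.5. At an unadjusted p under 0.05 there were 242 members (2.23%), 117 lower (1.08%) and 125 higher (1.15%) in cells labelled knockout, and 5% of the members would be 542.4. The median SE was 0.26 log2 units and the median 95% interval extended 0.68 log2 units to either side, before any adjustment. A call after adjustment over 17994 genes needed more than an interval clear of 0, as the genes with such an interval below show. An exact permutation test of 2 against 2 responses cannot give a p below 0.333.

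Of all genes tested, 7 were called (0.0389%), and none is a member because each was listed at 0 in some libraries. These were small RNA genes or genes of unmatched type, and an exact 0 in this kind of table can be a failed estimate. SNORD54, for example, a box C/D small nucleolar RNA, was listed at 2146 and 845 FPKM in starved libraries labelled knockout and at 0 in those in complete medium, against 0 in starved wild-type libraries and 2458 and 2023 FPKM in wild type in complete medium (limma adjusted p = 0.00275).

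Genes were also chosen by a response of 1 log2 unit or more in size in 1 genotype and batch and read in the other batch. Sets chosen for a higher response had similar median responses of both genotypes, and the sets chosen for a lower response in batch 2 had median responses nearer 0 in cells labelled knockout. The 226 members with a wild-type response of 1 log2 unit or more in batch 1 had median batch 2 responses of 0.47 in cells labelled knockout and 0.49 in wild type, with a median interaction of −0.11. Of them, 58.4% had a batch 2 interaction below 0, against 52.1% of all members. The 253 chosen in the same way in batch 2 had median batch 1 responses of 0.56 and 0.54 and a median interaction of −0.05. The 99 members with a wild-type response of −1 or below in batch 2 had median batch 1 responses of −0.09 in cells labelled knockout and −0.41 in wild type, and 38.4% had a batch 1 interaction below 0, against 51.1% of all members. The 278 and 208 members chosen by a response of 1 or more in cells labelled knockout, in batch 1 and in batch 2, had median responses in the other batch of 0.32 and 0.46 in cells labelled knockout and 0.34 and 0.46 in wild type. The 120 members with a response of −1 or below in cells labelled knockout in batch 2 had batch 1 medians of −0.23 in those cells and −0.39 in wild type, a median interaction of 0.11, and 42.5% below 0. In the sets chosen by a lower response in batch 1, 174 by wild type and 184 by cells labelled knockout, the batch 2 medians were −0.25 and −0.19 in cells labelled knockout and −0.23 and −0.18 in wild type. Because choice and reading used different libraries, these medians are not set by the choice, and no test was made on them.

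The 3 serine synthesis enzymes all had a lower response in cells labelled knockout in both batches, and none passed the test. PSPH, the phosphatase of the last step (hg19 chr7:56078744-56119297), had 44.6 and 44.2 FPKM in starved libraries labelled knockout and 24.8 and 23.9 FPKM in those in complete medium, against 65.1 and 81.2 FPKM in starved wild type and 24.3 and 32.8 FPKM in wild type in complete medium. Starved libraries labelled knockout were below starved wild type in both batches, and PSPH was 1.79 and 1.85 times its complete-medium level in cells labelled knockout, against 2.68 and 2.47 times in wild type. The interaction was −0.57 and −0.42 (mean −0.49, SE 0.15, 95% interval −0.90 to −0.09, limma adjusted p = 1.00). PSAT1, the transaminase of the middle step, had 52.2 and 75.8 FPKM starved and 19.5 and 31.9 FPKM in complete medium in libraries labelled knockout, against 62.9 and 78.3 FPKM and 18.6 and 14.4 FPKM in wild type. In batch 2 the genotypes were close when starved and apart in complete medium, where the library labelled knockout was the higher. The PSAT1 interaction was −0.32 and −1.14 (mean −0.73, SE 0.27). PHGDH, the dehydrogenase of the first step, had 85.9 and 51.7 FPKM starved and 60.5 and 31.6 FPKM in complete medium in libraries labelled knockout, against 90.9 and 79.3 FPKM and 53.2 and 24.5 FPKM in wild type. Its interaction was −0.26 and −0.97 (mean −0.61, SE 0.33). The PSPH interaction was of similar size in the batches, while those of PSAT1 and PHGDH were larger in batch 2.

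**Figure D2:**
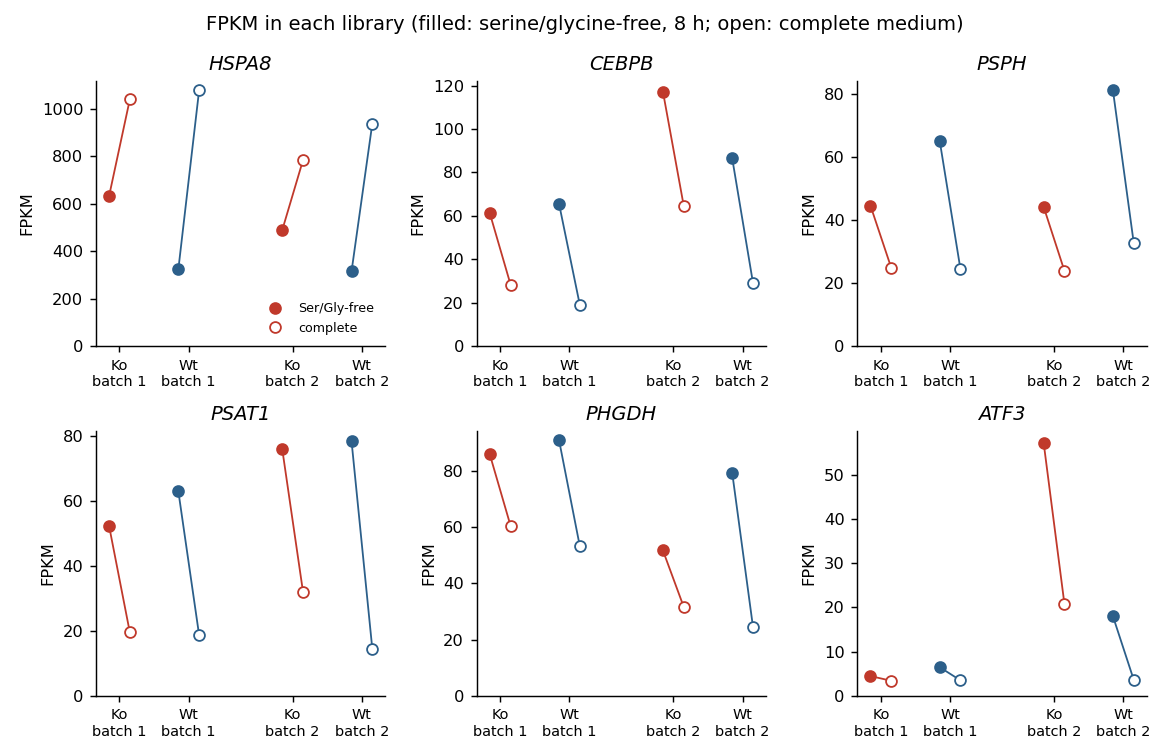
FPKM (vertical axes from 0) of HSPA8, CEBPB, PSPH, PSAT1, PHGDH and ATF3 in each of the 8 libraries; red is labelled knockout (Ko) and blue wild type (Wt), filled points are the starved and open points the complete-medium library, and a line joins the 2 cultures of a genotype and batch. The starved point of HSPA8 is higher in the libraries labelled knockout in both batches, and ATF3 is highest in the batch 2 libraries labelled knockout.

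Most genes of the ATF4 amino acid response list had a lower response in cells labelled knockout, although none of them passed the test. Of 47 listed genes 44 were measured, 27 had an interaction below 0 in both batches and 1, ATF5, above 0 in both. Among all members 26.5% were below and 23.4% above 0 in both batches, and these shares also apply beside the counts of the lists below. Below 0 were 28 of the 44 in batch 1, against 51.1% of all members, and 42 of the 44 in batch 2, against 52.1%. The median interaction was −0.22 and −0.62, against −0.01 and −0.02 over all members, and 5 of the 44 had an unadjusted p under 0.05, all of them lower. ATF5 was named after its values were seen. The ATF4, serine synthesis, transport and transcription factor lists share genes, so their counts are not separate.

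The 2 batches differed in the medium in which the genotypes were apart. Its median response was 1.04 and 0.81 log2 units in cells labelled knockout, against 1.11 and 1.40 in wild type. In batch 1 the median level of the list in libraries labelled knockout relative to wild type was −0.26 log2 units when starved and −0.08 in complete medium. In batch 2 it was −0.05 when starved and 0.51 in complete medium. The batch 2 interaction of the list was therefore seen mainly as a higher complete-medium level in the library labelled knockout. Both batch 2 libraries labelled knockout, starved and in complete medium, differed from wild type in their epithelial and mesenchymal markers. Whether this bears on the list was not tested.

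**Figure D3:**
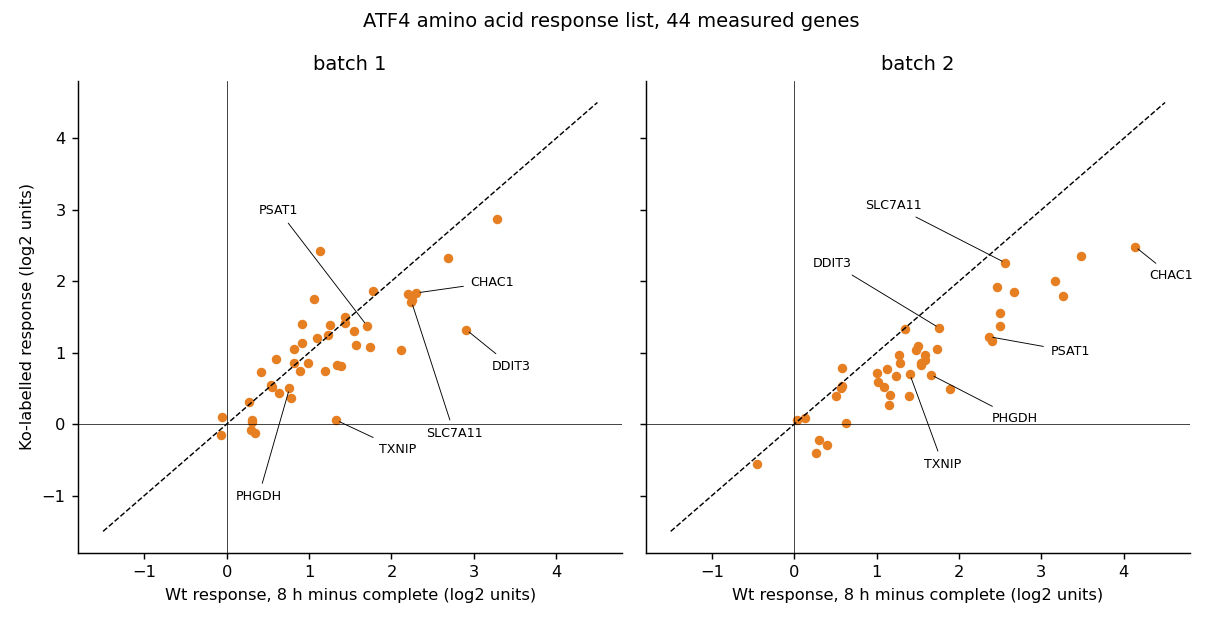
Response of the 44 measured ATF4-list genes in cells labelled knockout (Ko, vertical axis) against wild type (Wt, horizontal axis), in log2 units, for batch 1 and batch 2; the dashed line marks equal responses. In batch 2, 42 of the 44 genes lie below the line, and in batch 1, 28.

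CEBPB, a C/EBP transcription factor that pairs with ATF4 (chr20:48807376-48809212), had 61.3 and 117 FPKM starved and 28.4 and 64.7 FPKM in complete medium in libraries labelled knockout, against 65.6 and 86.5 FPKM and 19.0 and 29.1 FPKM in wild type. The complete-medium libraries labelled knockout were above wild type in both batches. Its interaction was −0.65 and −0.69 (mean −0.67, SE 0.18, 95% interval −1.13 to −0.22, limma adjusted p = 1.00). CEBPG, a C/EBP partner that lacks an activation domain, had 37.9 and 28.1 FPKM starved and 17.0 and 13.2 FPKM in complete medium in libraries labelled knockout, against 42.8 and 28.2 FPKM and 13.8 and 9.53 FPKM in wild type. Its interaction of −0.46 and −0.44 was nearly equal in the batches. DDIT3, which encodes the stress factor CHOP, had 17.6 and 61.3 FPKM starved and 6.44 and 23.5 FPKM in complete medium in libraries labelled knockout, against 59.6 and 53.1 FPKM and 7.07 and 14.99 FPKM in wild type. The DDIT3 interaction of −1.59 in batch 1 came with a starved library labelled knockout below wild type, and that of −0.41 in batch 2 with both libraries labelled knockout above it. The listed locus of DDIT3 is shared with other genes.

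Among effectors of the list, CHAC1, which degrades glutathione, had 12.7 and 38.8 FPKM starved and 2.83 and 6.12 FPKM in complete medium in libraries labelled knockout, against 23.9 and 76.0 FPKM and 4.05 and 3.38 FPKM in wild type. Its interaction was −0.47 and −1.65, with an SE of 0.66. CTH, which makes cysteine from cystathionine, had 6.24 and 7.98 FPKM starved and 2.52 and 4.66 FPKM in complete medium in libraries labelled knockout, against 19.4 and 26.3 FPKM and 3.69 and 10.6 FPKM in wild type. All 4 libraries labelled knockout lay below the wild-type library of the same batch and medium, and the CTH interaction was −1.08 and −0.57. TXNIP, which binds thioredoxin and limits glucose uptake, had 2.00 and 158 FPKM starved and 1.89 and 96.9 FPKM in complete medium in libraries labelled knockout, against 9.07 and 95.1 FPKM and 3.01 and 35.3 FPKM in wild type, with an interaction of −1.27 and −0.70. MTHFD2, a mitochondrial folate enzyme, had an interaction of −0.24 and −0.82, and SLC7A11, the cystine importer, one of −0.53 and −0.31. Both share their listed loci with other genes. The wider list of glycine, serine and folate one-carbon genes did not share the sign of MTHFD2. Of its 26 genes 19 were measured, with medians of −0.02 and 0.02, and 4 were below and 4 above 0 in both batches. MTFMT, which formylates the mitochondrial initiator tRNA, had 15.4 and 9.37 FPKM starved and 8.41 and 3.97 FPKM in complete medium in libraries labelled knockout, against 10.2 and 12.9 FPKM and 7.56 and 10.98 FPKM in wild type, and an interaction of 0.42 and 0.85 (mean 0.63, SE 0.24).

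The promoters of CHAC1 and CEBPG are shown because each holds the letters TGATGNAA, a form of the composite site that C/EBP-ATF dimers bind, on either strand. The search covered the 250 bases before the start in RefSeq promoters of GRCh38.p14, and these are printed with the match in capitals.
CHAC1: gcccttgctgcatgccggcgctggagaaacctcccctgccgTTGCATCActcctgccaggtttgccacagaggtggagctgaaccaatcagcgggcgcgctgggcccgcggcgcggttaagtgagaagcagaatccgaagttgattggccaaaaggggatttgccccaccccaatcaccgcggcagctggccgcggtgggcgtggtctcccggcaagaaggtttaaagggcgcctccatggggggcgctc
CEBPG: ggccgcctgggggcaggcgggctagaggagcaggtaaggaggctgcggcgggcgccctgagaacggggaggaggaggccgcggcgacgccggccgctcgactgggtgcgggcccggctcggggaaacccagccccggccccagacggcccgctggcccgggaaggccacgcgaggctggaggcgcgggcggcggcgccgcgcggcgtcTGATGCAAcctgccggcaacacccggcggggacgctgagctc
CHAC1 (chr15:40953221-40953470, plus strand) holds it 209 bases before the start, and CEBPG (chr19:33373863-33374112, plus strand) 42 bases before it. CEBPG has 2 listed promoters, and only the printed promoter held a match. A symbol was counted where any of its promoters held the letters. The letters were found for 5 of the 35 ATF4-list symbols that matched a promoter, and for 3.89% of all 27305 symbols. A match is a string of letters and not a shown binding site.

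The medians of amino acid transporters and tRNA synthetases had the same sign with smaller values, and single genes went both ways. Of 24 transport genes 18 were measured, 9 were below and 3 above 0 in both batches, and the median interaction was −0.09 and −0.37. SLC6A9, a glycine transporter, had 9.54 and 12.2 FPKM starved and 3.78 and 5.33 FPKM in complete medium in libraries labelled knockout, against 7.71 and 8.52 FPKM and 1.82 and 2.25 FPKM in wild type. It was higher in all libraries labelled knockout, more so in complete medium, and its interaction was −0.49 and −0.49. SLC7A2, a cationic amino acid transporter, had 9.81 and 2.05 FPKM starved and 10.7 and 3.17 FPKM in complete medium in libraries labelled knockout, against 10.1 and 1.12 FPKM and 7.06 and 0.811 FPKM in wild type. Its starved level was the lower in both batches of cells labelled knockout and the higher in both of wild type, with an interaction of −0.57 and −0.68. SLC25A22, of the same list, went the other way, with an interaction of 0.44 and 0.49. GLUL, glutamine synthetase, had 17.0 and 33.5 FPKM starved and 22.3 and 47.0 FPKM in complete medium in libraries labelled knockout, against 22.5 and 42.9 FPKM and 22.1 and 42.5 FPKM in wild type. Wild type was level between media, and the GLUL interaction was −0.40 and −0.49 (mean −0.44, SE 0.16). GLUL belongs to a separate list, of asparagine, proline and glutamate synthesis. Its 14 measured genes had medians of 0.01 and −0.13, with 6 below and 4 above 0 in both batches. OAT (0.22 and 0.27) and ALDH18A1 (0.21 and 0.21) of that list were above 0 in both. All 20 cytosolic aminoacyl-tRNA synthetases were measured, with medians of −0.13 and −0.09, 10 below and 4 above 0 in both batches. Of those with the smallest p, FARSA (0.81 and 0.16) and RARS (0.19 and 0.34) were above 0 in both, and QARS (−0.17 and −0.31) below.

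Starved cells labelled knockout had more HSPA8 mRNA than starved wild-type cells in both batches. HSPA8, the constitutive cytosolic HSP70 chaperone (hg19 chr11:122928197-122933938), had 632 and 489 FPKM starved and 1041 and 784 FPKM in complete medium in libraries labelled knockout, against 324 and 315 FPKM and 1080 and 938 FPKM in wild type. The complete-medium libraries were close between genotypes, and each starved library labelled knockout was above the starved wild-type library of its batch. Starved cells labelled knockout had 0.608 and 0.624 times their complete-medium level, and wild-type cells 0.2998 and 0.336 times. The interaction was 1.02 and 0.89 (mean 0.95, SE 0.14, 95% interval 0.58 to 1.33, unadjusted p = 0.0014, limma adjusted p = 0.966 over all genes). The HSPA8 locus in the table is shared with 3 other listed genes, among them small nucleolar RNAs in its introns, and the labels do not say how their reads were divided.

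Other chaperones showed less. Of 25 heat shock chaperones 21 were measured, with a median interaction of 0.14 and 0.00, and 6 were below and 8 above 0 in both batches. DNAJA1, an HSP40 co-chaperone of HSP70, had 90.3 and 62.1 FPKM starved and 134 and 81.8 FPKM in complete medium in libraries labelled knockout, against 60.9 and 49.6 FPKM and 133 and 77.8 FPKM in wild type. As for HSPA8, the starved library labelled knockout was the higher in both batches, and the DNAJA1 interaction was 0.56 and 0.25. HSPE1, the mitochondrial co-chaperonin, had an interaction of −0.32 and −0.09. The HSPA8 promoter is printed because it holds 2 matches, in capitals, to TTC, GAA and TTC spaced by any 2 bases, a pattern of the heat shock element, on either strand.
HSPA8: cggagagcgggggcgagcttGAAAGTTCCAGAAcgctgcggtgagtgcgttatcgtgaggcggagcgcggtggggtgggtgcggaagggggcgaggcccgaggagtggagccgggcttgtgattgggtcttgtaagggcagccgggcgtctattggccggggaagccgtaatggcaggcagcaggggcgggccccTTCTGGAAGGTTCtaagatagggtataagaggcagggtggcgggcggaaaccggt
This region lies at chr11:123062137-123062386 of GRCh38.p14, minus strand, and the matches begin 230 and 55 bases before the start. The pattern was found for 6 of 19 heat shock symbols with a promoter and for 0.557% of all 27305 symbols.

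Mitosis genes also had mostly negative interactions, at a much smaller size. All 30 were measured, 21 were below 0 in both batches and 1, ANLN, above 0 in both; ANLN was named after its values were seen. In each batch 25 of the 30 were below 0, against 51.1% of all members in batch 1 and 52.1% in batch 2. Of all members 26.5% were below 0 in both. The median interaction was −0.15 and −0.17, and no gene of the list had an unadjusted p under 0.05. With the libraries aligned on their medians or upper quartiles 18 of the 30 were below 0 in both batches. The median response of the list was −0.25 and −0.14 in cells labelled knockout, against −0.08 and 0.09 in wild type.

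**Figure D4:**
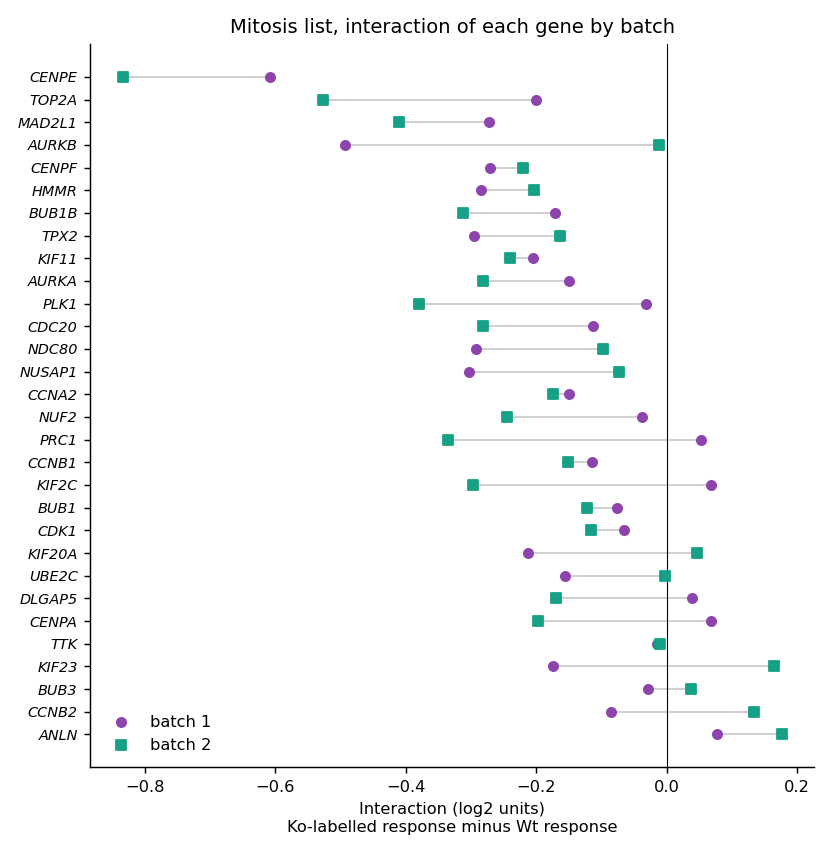
Interaction (log2 units) of each of the 30 mitosis genes in batch 1 (circles) and batch 2 (squares), joined by a grey line and ordered by their mean. Of the 30 genes, 21 lie left of 0 in both batches and ANLN alone right of it in both.

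CENPE, the kinesin that carries chromosomes to the spindle equator, had 10.6 and 5.45 FPKM starved and 18.1 and 7.05 FPKM in complete medium in libraries labelled knockout, against 15.4 and 9.91 FPKM and 16.7 and 6.64 FPKM in wild type. Its interaction was −0.61 and −0.83 (mean −0.72, SE 0.32). TOP2A, topoisomerase II alpha, had 112 and 20.6 FPKM starved and 141 and 29.8 FPKM in complete medium in libraries labelled knockout, against 108 and 46.6 FPKM and 118 and 46.2 FPKM in wild type, with an interaction of −0.20 and −0.53. MAD2L1, a spindle checkpoint protein, had one of −0.27 and −0.41. DNA replication and nucleotide synthesis genes did not share this sign. All 48 were measured, with medians of 0.04 and 0.03, and 7 were below and 16 above 0 in both batches. MCM5, a subunit of the replicative helicase, had 120 and 23.8 FPKM starved and 108 and 22.7 FPKM in complete medium in libraries labelled knockout, against 104 and 39.98 FPKM and 109 and 51.9 FPKM in wild type, with an interaction of 0.24 and 0.44. Fewer dividing cells and less mRNA per cell cannot be told apart in these bulk libraries.

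More MYC and ribosome biogenesis genes had interactions above than below 0 in both batches. Of 29 measured, 13 were above and 4 below 0 in both batches, with medians of 0.06 and 0.03. PES1, a factor of large-subunit rRNA processing, had 76.8 and 47.5 FPKM starved and 49.4 and 33.1 FPKM in complete medium in libraries labelled knockout, against 66.2 and 47.1 FPKM and 52.3 and 42.9 FPKM in wild type, and its interaction was 0.29 and 0.37. NOP16, a nucleolar protein, had one of 0.25 and 0.33. The 44 cytosolic ribosomal protein genes had medians of 0.00 and −0.03.

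Of 24 measured interferon-stimulated genes 10 were above and 4 below 0 in both batches, and the median was −0.02 in the first batch and 0.21 in the second. IFI44 had 8.94 and 16.3 FPKM starved and 6.69 and 12.7 FPKM in complete medium in libraries labelled knockout, against 11.4 and 5.34 FPKM and 16.4 and 7.30 FPKM in wild type. The starved level was the higher in both batches of cells labelled knockout and the lower in both of wild type, with an interaction of 0.86 and 0.73 (mean 0.79, SE 0.21, 95% interval 0.24 to 1.34, limma adjusted p = 1.00). ISG15, a ubiquitin-like modifier, had 22.9 and 276 FPKM starved and 26.4 and 226 FPKM in complete medium in libraries labelled knockout, against 20.8 and 120 FPKM and 30.1 and 151 FPKM in wild type, with an interaction of 0.32 and 0.62. OAS2, which makes the activator of RNase L, was under 0.2 FPKM in every batch 1 library and had an interaction of 0.08 and 0.97.

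Several groups took opposite signs in the 2 batches. Secreted stress factors, of which 14 of 20 were measured, had median interactions of 0.34 and −0.71, with 6 of 14 genes below 0 in batch 1 and 14 of 14 in batch 2. In batch 2 the median level of these genes in the library labelled knockout relative to wild type was 0.02 log2 units when starved and 0.86 in complete medium. PLAU, the urokinase plasminogen activator, took opposite signs, with an interaction of 0.62 and −0.78; it was named after its values were seen. It had 25.2 and 824 FPKM starved and 12.6 and 520 FPKM in complete medium in libraries labelled knockout, against 16.5 and 975 FPKM and 12.9 and 359 FPKM in wild type. The genes of this list with the smallest p were below 0 in both batches. IL11, a cytokine of the interleukin 6 family, had 8.40 and 27.6 FPKM starved and 10.01 and 14.2 FPKM in complete medium in libraries labelled knockout, against 6.71 and 13.5 FPKM and 6.46 and 1.94 FPKM in wild type. Its interaction was −0.28 in batch 1, and that of −1.40 in batch 2 came with a low wild-type level in complete medium. VEGFA, the angiogenic growth factor, had an interaction of −0.26 and −0.65, and the chemokine gene IL8 one of −0.44 and −1.33. IL8 was under 3 FPKM in every batch 1 library, and in batch 2 it had 1849 FPKM starved and 659 FPKM in complete medium in cells labelled knockout, against 1355 and 191 FPKM in wild type. PTGS2, the inducible cyclooxygenase and a gene of the NF-kappaB list, likewise had 154 and 83.9 FPKM there, against 30.7 and 5.36 FPKM in wild type, and an interaction of −0.46 and −1.45.

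The 16 measured NF-kappaB targets had medians of 0.22 and −0.30, the 27 TGF-beta and YAP targets 0.30 and −0.38, and the 15 AP-1 and immediate early genes 0.37 and −0.18. FOSL1, a FOS-family subunit of AP-1, had an interaction of 1.21 and −0.14. The 13 mitochondrially encoded mRNAs had medians of −0.21 and 0.29, with 12 of 13 below 0 in batch 1 and 0 of 13 in batch 2. The metallothioneins also differed between batches, MT2A with an interaction of 0.41 and 1.56 and MT1X with one of −0.07 and 1.26. MT2A, a zinc-binding protein, had 1065 and 774 FPKM starved and 78.2 and 76.5 FPKM in complete medium in libraries labelled knockout, against 1058 and 1143 FPKM and 104 and 337 FPKM in wild type. In batch 2 the complete-medium library was higher in wild type, and in batch 1 the 2 genotypes lay closer together. Metallothionein genes are near-identical copies, so reads may have been split between them.

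**Figure D5:**
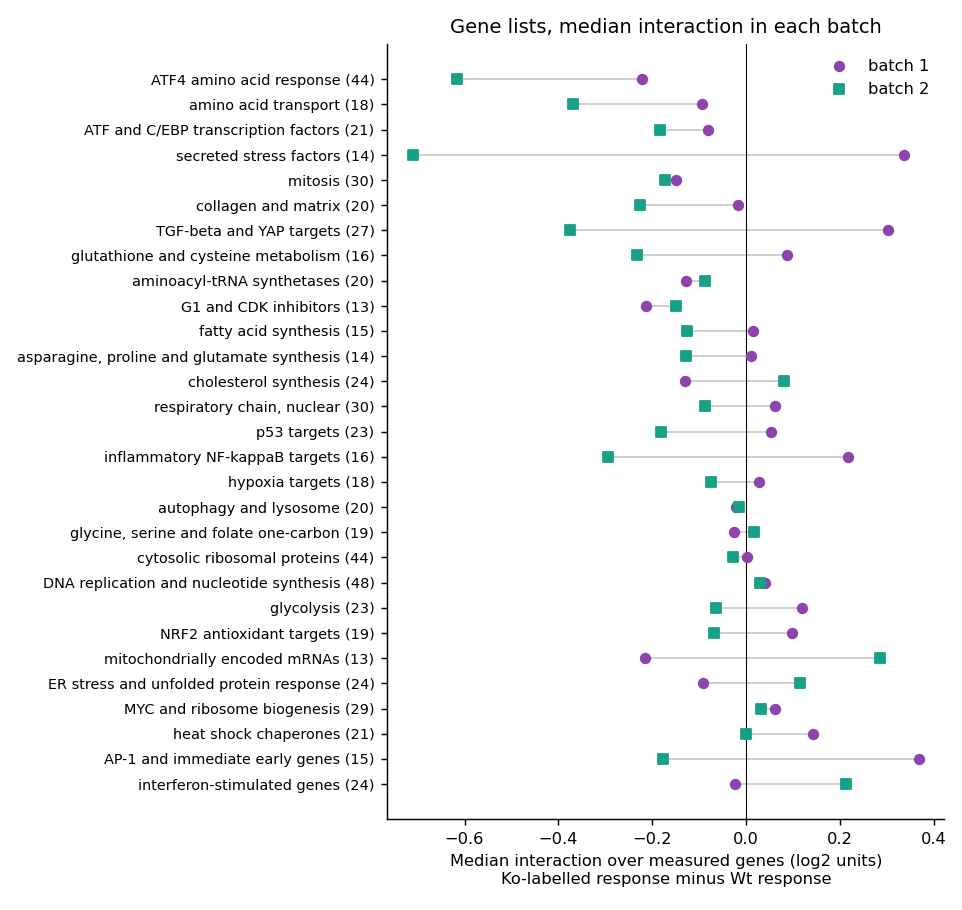
Median interaction (log2 units) of the 29 gene lists with 10 or more measured genes, in batch 1 (circles) and batch 2 (squares), with the number measured in parentheses. In 11 of the 29 lists the batches share a sign; the ATF4 and mitosis lists lie left of 0 in both, while secreted stress factors lie at 0.34 and −0.71.

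Cholesterol synthesis genes, which are under sterol control through SREBP, had medians of −0.13 and 0.08 over 24 measured genes. MVD, which makes isopentenyl diphosphate, had 36.6 and 17.8 FPKM starved and 63.2 and 26.3 FPKM in complete medium in libraries labelled knockout, against 25.3 and 10.8 FPKM and 50.1 and 23.5 FPKM in wild type. Its starved level was the lower in every pair, and its interaction was 0.19 and 0.52.

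The members with the largest interactions in both batches were few. An interaction of 1 or above in both batches was seen for 17 members (0.157%) and one of −1 or below for 11 (0.101%), while 32 members were at least 1 in size with opposite signs. Of the 28 with 1 sign, 12 were among the 9672 protein-coding members, 9 among 212 small RNA genes and 7 among 964 genes of other types. The SD of the interaction was 0.41 and 0.41 for protein-coding genes and 1.13 and 0.77 for small RNAs.

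SNORA19, a box H/ACA small nucleolar RNA that guides pseudouridylation, had the smallest p of all members. It had 73.7 and 101 FPKM starved and 51.8 and 78.2 FPKM in complete medium in libraries labelled knockout, against 28.1 and 24.9 FPKM and 93.3 and 83.8 FPKM in wild type. Both starved wild-type libraries were the lowest of their batch by a wide margin. The interaction was 2.20 and 2.07 (mean 2.14, SE 0.15, 95% interval 1.75 to 2.52, limma adjusted p = 0.0684). Its locus in the table (hg19 chr10:120794356-120840316) is shared with EIF3A, a translation initiation factor subunit, whose interaction was 0.06 and 0.14; EIF3A was named after its values were seen. SNORD99, a box C/D small nucleolar RNA, had 1064 and 631 FPKM starved and 2877 and 1551 FPKM in complete medium in libraries labelled knockout, against 1245 and 984 FPKM and 990 and 950 FPKM in wild type. Its interaction was −1.76 and −1.35 (mean −1.55, SE 0.18, limma adjusted p = 0.374), and SNORA41 had one of −2.55 and −2.02. MT-TQ, the mitochondrial glutamine tRNA, had 4940 and 6339 FPKM starved and 2905 and 7010 FPKM in complete medium in libraries labelled knockout, against 1908 and 731 FPKM and 4440 and 2774 FPKM in wild type, with an interaction of 1.98 and 1.78. The listed loci of SNORD99, SNORA41 and MT-TQ are likewise shared.

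Among protein-coding members, CLK3, a kinase of splicing factors, had 15.7 and 25.1 FPKM starved and 14.7 and 24.3 FPKM in complete medium in libraries labelled knockout, against 8.39 and 14.6 FPKM and 21.0 and 26.7 FPKM in wild type. Cells labelled knockout were level between media, the starved wild-type libraries were the lowest of their batch, and the interaction was 1.31 and 0.87 (mean 1.09, SE 0.22, 95% interval 0.52 to 1.66, limma adjusted p = 1.00). RAI14, an actin-binding protein, had 44.4 and 21.6 FPKM starved and 52.2 and 32.5 FPKM in complete medium in libraries labelled knockout, against 32.2 and 44.8 FPKM and 21.8 and 28.6 FPKM in wild type. The starved level was the lower in both batches of cells labelled knockout and the higher in both of wild type, and the interaction was −0.77 and −1.20 (mean −0.99, SE 0.19). ANKRD44, a regulatory ankyrin subunit of protein phosphatase 6, had 7.33 and 3.09 FPKM starved and 10.6 and 6.01 FPKM in complete medium in libraries labelled knockout, against 11.8 and 4.803 FPKM and 7.09 and 3.21 FPKM in wild type, with an interaction of −1.13 and −1.24.

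TAGLN, the actin-binding protein transgelin, had 33.8 and 16.7 FPKM starved and 14.6 and 4.96 FPKM in complete medium in libraries labelled knockout, against 24.4 and 1.66 FPKM and 18.4 and 1.496 FPKM in wild type. Its interaction was 0.77 and 1.48 (mean 1.12, SE 0.27). ESM1, a secreted proteoglycan, had an interaction of 2.12 and 1.37 with an SE of 0.87, and its complete-medium level in batch 1 was 0.0949 FPKM in cells labelled knockout, against 1.02 FPKM in wild type. METTL12, a mitochondrial methyltransferase, had one of 1.24 and 1.33, and IL17RA, the interleukin 17 receptor, one of −1.08 and −1.52. MRPL30, a mitochondrial ribosomal protein, had one of −2.42 and −2.90, but its locus is shared with 13 other listed genes, and 1 wild-type library was at 0.00928 FPKM. ZNF362, a zinc finger protein, had one of −2.24 and −1.28 at 1.24 to 5.26 FPKM in batch 1. CLK3, RAI14, ANKRD44, TAGLN, ESM1, METTL12, IL17RA and ZNF362 also share their listed loci, each with fewer other genes than MRPL30.

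A pair of noncoding genes gave large interactions in batch 1 that batch 2 did not repeat. SNHG5, a small nucleolar RNA host gene, had 1240 and 50.7 FPKM starved and 34.2 and 2085 FPKM in complete medium in libraries labelled knockout, against 69.0 and 34.2 FPKM and 1329 and 2746 FPKM in wild type. The batch 1 pair labelled knockout had its higher level when starved, unlike the 3 other pairs, and the interaction was 9.39 and 0.95. SNORD3A, the U3 small nucleolar RNA, had 46795 FPKM in the batch 1 complete-medium library labelled knockout and between 166 and 387 FPKM in all others, with an interaction of −6.82 and 0.14.

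At the level requirement, the members just inside it were SP4, RP11-359B12.2 and ZC3H10, with a second-highest level of 5.001, 5.005 and 5.006 FPKM, and those just outside were ZC2HC1A, ACVR2B and PPP1R26-AS1, at 4.998, 4.998 and 4.997 FPKM. Interactions of the 3 inside lay between −0.70 and 0.11, and of the 3 outside between −0.87 and 0.18.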

How the data were processed

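Total RNA of 8 hTERT-RPE1 cultures was sequenced with Illumina protocols, per the labels. The authors deposited FPKM in 2 tables, 1 per batch, normalized separately. The submitters' processing notes name TopHat, Cufflinks, Cuffdiff and hg19, without versions or settings. The unit follows from those tools and the values. Of the members, 7492 share their listed locus with another gene, so reads of overlapping genes may have been split. Coordinates written 1-based are hg19 loci, and promoters are RefSeq on GRCh38.p14.

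Genes with 1 FPKM or more in at least 2 libraries were tested on log2(FPKM + 1), so changes of low genes are understated. The interaction was fitted with limma 3.58.1 (R 4.3.3), a block per genotype and batch, a trended prior and Benjamini-Hochberg adjustment, with 2 residual and 2.80 prior degrees of freedom. The labels state that equal numbers mark 1 batch of treated cells. Libraries of the same number deviated together from their group means, with correlations from 0.755 to 0.902 over 6 pairs; any difference between the tables would also give these. The p-values rest on 2 experiments. The 95% intervals are for single genes and are not adjusted. The steps were tested on simulated data with independent noise in each library. The real responses of the 2 genotypes were correlated within a batch. The simulation therefore does not show how well the SEs and p-values hold here. Gene types came from GENCODE 29, which 98.2% of members matched by Ensembl ID.

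Members and lists were chosen with earlier results of these data known. Named genes were ATF3, the serine synthesis genes, the smallest p and largest interactions in both batches or in 1 batch, and the 3 smallest p of each list; not all of them are reported here. Exceptions are marked. Tables and figures used Python 3.11.15, pandas 2.3.3 and numpy 2.4.6. Alternatives varied the filter, pseudocount, scaling, block, prior and libraries used.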

Additional observations from a re-analysis of the deposited data

Results flagged for a closer look

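A set of 55 genes was taken from those that met the naming rule. It holds some genes not described above, such as SPARC, and leaves out some that are, such as ATF5. For 14 of the 55, the response had 1 direction in both batches of cells labelled knockout and the opposite direction in both batches of wild type. Any response other than 0 counted as a direction. Nearly level responses are thus included, such as those of GLUL in wild type and CLK3 in cells labelled knockout. Among all members this held for 676 (6.23%). Many of the 55 were chosen by a small p or a large interaction in both batches, which favours such genes, so nothing is read from the 2 shares. The difference itself did not pass the test across genes for any of the 14. Mean interactions above 0 were 2.14 for SNORA19, 1.29 for METTL12, 1.09 for CLK3, 0.79 for IFI44 and 0.34 for MCM5. Mean interactions below 0 were −2.66 for MRPL30, −1.76 for ZNF362, −1.55 for SNORD99, −1.30 for IL17RA, −1.19 for ANKRD44, −0.99 for RAI14, −0.63 for SLC7A2, −0.47 for EPCAM and −0.44 for GLUL.

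The interaction was called by limma for 7 genes, each listed at 0 in some libraries. Adjusted p was 0.00275 for SNORD54, 0.00307 for SNORD85, 0.00413 for RNU6-1201P, 0.0140 for AL034400.1 and 0.0492 for RNU6-1024P. The 2 Y_RNA genes had 0.0481 (ENSG00000199223) and 0.0492 (ENSG00000199751). AL034400.1, for instance, was listed at 725 and 422 FPKM in starved libraries labelled knockout and at 0 in all 6 others.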

How the results depend on the processing

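The median single-gene 95% interval reached 0.68 log2 units to either side before adjustment, larger interactions also missed the adjusted threshold, and depth is known only in relative terms. The count of members called lower in cells labelled knockout was 0 under every alternative. The count called higher was 0, except that SNORA19 was called when exact zeros were allowed at 5 FPKM and under a robust prior (1 each); its adjusted p ranged from 0.0251 to 1.00. Of all genes tested 7 were called, 0 with no filter, with members only and with protein-coding genes only, 4 with a pseudocount of 0.1 and 4 with 0.5, 14 under a robust prior, 0 to 1 when 1 library was left out, and 1 when both libraries labelled knockout of batch 2 were left out, which was added after seeing the data. With a replicate block of the batch alone 11 were called and with no replicate block 3. With a medium term for each batch added to the block 6 were called. None of these block choices changed a call of a member. They did change the SE, which with that medium term was 0.23 for ATF3 and 0.13 for HSPA8. In the main fit it was 0.59 and 0.14. Members at 1 or above in both batches numbered 17, but 6 with a pseudocount of 5. Those at −1 or below numbered 11, but 27, 24 and 5 with pseudocounts of 0.1, 0.5 and 5.

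Of the same 55 genes 48 kept the sign of their mean interaction under all alternatives that gave a test. Each batch read alone gives no test and is not counted. MT-ATP8 (−0.16 and 0.70) and MT-CO1 (−0.33 and 0.005), both among the 48, had opposite signs in the 2 batches. Among the tested alternatives the other 7 changed sign only when 1 library was left out. The genotype of that library then has a response from 1 batch, set against the mean response of both batches in the other genotype. A difference between batches shared by both genotypes no longer cancels. The range was −1.16 to 0.13 for ATF3, −0.34 to 1.41 for FOSL1, −1.96 to 0.29 for IL11, −0.0118 to 1.20 for MT1X, −1.09 to 0.0284 for MTHFD2, −0.0660 to 10.41 for SNHG5 and −6.88 to 0.19 for SNORD3A. The size was less stable than the sign. For 32 of the 55, these 7 included, leaving out 1 library moved the mean by over 1.5 times, among them CHAC1 (−1.98 to −0.144), PTGS2 (−1.86 to −0.0494), IL8 (−1.60 to −0.176), PHGDH (−1.06 to −0.167) and MT2A (0.198 to 1.78). The CHAC1 range reached beyond both of its batch interactions, −0.47 and −1.65. These ranges are therefore not the spread of the 2 batch interactions. How much of each range came from a difference between batches shared by both genotypes was not tested.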
